A study of Schizosaccharomyces pombe with 8 samples.

Results

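The endoplasmic reticulum (ER) folds secreted and membrane proteins with the help of its own HSP70 chaperone, which fission yeast encodes as bip1. Its transcript was followed through heat shock and recovery together with those of 4 other genes of ER folding. The 5 genes were chosen by name, as the probe sets annotated to bip1, hut1, cnx1, ire1 and ero11. All of them have 1 annotated S. pombe probe set, and they are 5 of the 2896 S. pombe genes with a probe set and of the 2892 genes bright enough to test.

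The study used RNA from 2 Schizosaccharomyces pombe strains, opi10+ and opi10-, which differ in the opi10 gene. The gene opi10 belongs to the Hikeshi family, whose human member imports HSP70 into the nucleus under heat. Both strains were grown to mid-log phase in liquid Edinburgh Minimal Medium at 30C (before), held for 1 h at 43C, and returned to 30C for 1 h or 3 h (recovery). Each strain and condition has 1 array, 8 in all. Whether these came from separate cultures, and how opi10- was made, is not in the labels, which state no further alleles. P-values therefore measure the spread between these arrays only.

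BiP holds unfolded chains in the ER lumen and helps to pull new proteins in through the translocon. Calnexin (cnx1) binds chains that carry N-linked sugars, Ero1 oxidases (ero11 among them) supply the oxidising power for disulfide bonds, and Hut1 is an ER membrane transporter of the nucleotide-sugar transporter family whose loss in fission yeast disturbs folding in the ER. Ire1 senses unfolded proteins. In fission yeast it has no transcription factor mRNA to splice and instead cuts ER-bound mRNAs. It also trims the 3' end of bip1 mRNA, which makes that mRNA more stable. Where the probes lie relative to this cut was not analysed here.

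The deposited values are intensities on a linear scale, called signals here. Median signals over the S. pombe probe sets were 492.5 and 516.5 on the arrays at 43C and between 922.4 and 1096 on the other 6. Changes are therefore given on the log2(signal + 16) scale after quantile normalization, which sets each gene against the rest of its array. On the deposited scale the median gene moved by -0.91 log2 at 43C, by 0.04 at 1 h and by 0.11 at 3 h of recovery. Each change comes from limma with an additive model of strain and condition, so that its standard error (SE) reflects how far the strains responded differently. A gene is said to have risen or fallen when its Benjamini-Hochberg adjusted p over all 2892 genes was below 0.05.

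Heat raised bip1 in both strains, and its level came down during recovery. In opi10+ the signal of bip1 (SPAC22A12.15C) was 4509 before heat, 9979 at 43C, 7341 after 1 h and 5599 after 3 h of recovery. In opi10- it was 4852, 9511, 6054 and 3211 in the same order. The highest signal lay at 43C in both strains, and the 3 h array lay above the array before heat in opi10+ and below it in opi10-.

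The rise of bip1 at 43C was 1.25 ± 0.23 log2 (SE, 2 arrays per condition), or 2.38-fold, with a limma adjusted p of 0.00248. It was 1.34 in opi10+ and 1.16 in opi10-, and 1.06 over both in the deposited values. Leaving out each array in turn gave 1.00 to 1.55, with adjusted p between 0.00043 and 0.0233. At 43C bip1 was brighter than 99.1% of tested genes in opi10+ and 99% in opi10-. The brightest probe set of an array reached between 12359 and 15296, and saturation was not tested.

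During recovery the bip1 transcript was no longer called against the level before heat. The change was 0.56 ± 0.23 at 1 h (limma adjusted p = 0.08), and it would have been called without either of the 3 h arrays, at 0.57 when the opi10+ one was left out and at 0.56 for the opi10- one, and likewise without the opi10- array before heat, at 0.84 (adjusted p = 0.0447). At 3 h the change was -0.12 ± 0.23 (adjusted p = 0.709), a mean of 0.39 in opi10+ and -0.63 in opi10-. Without the opi10- array before heat it was 0.16, and without the opi10- array at 3 h it was 0.28.

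From 43C to 3 h of recovery bip1 fell by 1.37 log2 (limma adjusted p = 0.00171). The single steps on this way were less secure. The fall from 43C to 1 h was -0.69 (adjusted p = 0.0325) and the fall from 1 h to 3 h was -0.67 (adjusted p = 0.0492). Of the 8 settings that leave out 1 array, 4 ended the call of the first step and 5 that of the second. The second step was -0.28 without the opi10- array at 3 h. In order of level the conditions were 43C, 1 h, before and 3 h, and the neighbours 1 h and before, and before and 3 h, were not told apart by the test.

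The transcript of hut1 went the other way. In opi10+ the signal of hut1 (SPBC839.11C) was 789 before heat, 68.7 at 43C, 420 after 1 h and 416 after 3 h. In opi10- it was 867, 87.8, 434 and 352. Both arrays before heat lay above all 6 later arrays, and both arrays at 43C lay below all others.

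At 43C hut1 fell by 2.01 ± 0.12 log2, to 0.248 of its level before heat (limma adjusted p = 3.11e-05). This is on the normalized scale, and on the deposited scale the change was -3.17. It then rose by 0.94 from 43C to 1 h (adjusted p = 0.000796), yet it remained below the level before heat by -1.06 ± 0.12 at 1 h (adjusted p = 0.00112) and by -1.42 ± 0.12 at 3 h (adjusted p = 0.00179). The change at 3 h was the 8th lowest of the 2892 genes. Between 1 h and 3 h the difference was -0.36 (adjusted p = 0.0533), which missed the threshold, and 3 h lay above 43C by 0.59 (adjusted p = 0.0052). All 3 calls against the level before heat held without any 1 array, and under the deposited scale.

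In the current gene table, 71.8% of the hut1 gene model overlaps that of usp107, which encodes a component of the U1 small nuclear ribonucleoprotein. The usp107 probe set changed by -0.39 at 43C (limma adjusted p = 0.00587), 0.01 at 1 h (adjusted p = 0.906) and -0.25 at 3 h (adjusted p = 0.052). Whether probes of one gene also report the other was not tested. The S. cerevisiae probe set of HUT1 on the same arrays, a measure of background, had signals between 1.18 and 11.4, with both of its highest values at 43C.

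**Figure D1:**
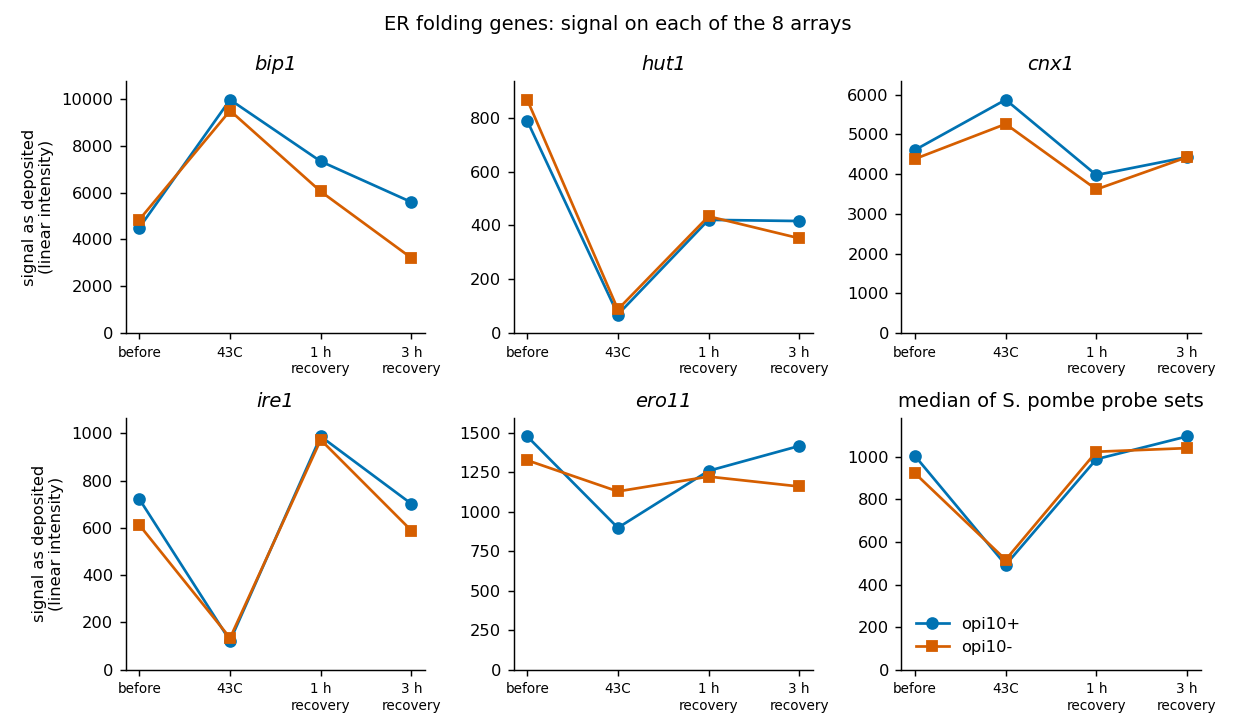
Deposited signal (linear intensity, from 0) of the 5 ER folding genes on each of the 8 arrays, by condition, with circles for opi10+ and squares for opi10-, and the median over S. pombe probe sets in the last panel. Points are single arrays and the lines join arrays of 1 strain. At 43C bip1 is at its highest in both strains (9979 and 9511) while hut1 (68.7 and 87.8) and ire1 (122 and 134) are at their lowest, and the array median is also low.

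Calnexin rose with bip1 at 43C and was back near its starting level at 1 h. The signals of cnx1 (SPAC3C7.11C) were 4606, 5869, 3974 and 4425 in opi10+ and 4381, 5258, 3614 and 4422 in opi10-, in the order before, 43C, 1 h and 3 h. Both arrays at 43C were above all others and both arrays at 1 h were below all others. The rise at 43C was 0.77 ± 0.09 log2, or 1.71-fold (limma adjusted p = 0.000271), and on the deposited scale 0.31. The change was -0.16 at 1 h (adjusted p = 0.157) and 0.05 at 3 h (adjusted p = 0.658), and neither was called. The fall from 43C to 1 h was -0.93 (adjusted p = 0.000203). The 3 lower conditions were not told apart from their neighbours in level.

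The sensor gene ire1 fell at 43C and rose above its starting level at 1 h. Its signals (SPAC167.01) were 721, 122, 986 and 701 in opi10+ and 612, 134, 972 and 588 in opi10-. The order of conditions was the same in both strains, with 1 h highest, then before, 3 h and 43C, and the arrays at 1 h and 43C did not overlap with any others. The change was -0.96 ± 0.08 at 43C (limma adjusted p = 9.85e-05) and 0.50 ± 0.08 at 1 h (adjusted p = 0.00344), so that ire1 rose by 1.46 between them (adjusted p = 5.98e-05). From 1 h to 3 h it fell by 0.80 (adjusted p = 0.00125).

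At 3 h ire1 was called below its level before heat, by -0.30 (limma adjusted p = 0.0277). This call ended on the deposited scale, where the change was -0.05 (adjusted p = 0.77), and in 5 of the 8 settings that leave out 1 array. The S. cerevisiae IRE1 probe set had signals between 0.358 and 5.47. Annotated non-coding RNAs overlap 60.7% of the ire1 gene model and 83.9% of that of ero11. Whether they add to these signals was not tested.

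The oxidase gene ero11 had no call against the level before heat in any condition. Its signals (SPBC4F6.16C) were 1476, 898, 1258 and 1416 in opi10+ and 1325, 1128, 1222 and 1160 in opi10-. Both deposited values at 43C lay below those of their own strain in every other condition. The array medians fell further from before heat to 43C than ero11 did. The normalized change at 43C was 0.25 ± 0.13 (limma adjusted p = 0.125), whereas the deposited scale gave -0.47 (adjusted p = 0.0193), so the sign depends on the scale. Centring arrays on a median that leaves out ribosomal protein genes gave 0.47 (adjusted p = 0.00788), and leaving out the opi10+ array at 43C gave 0.43 (adjusted p = 0.0191). The changes at 1 h and 3 h were -0.23 and -0.26 (adjusted p = 0.174 and 0.147).

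Of the 5 genes, 2 rose (bip1 and cnx1) and 2 fell (hut1 and ire1) at 43C, against 32.8% and 39.8% of all tested genes. At 1 h of recovery 1 rose (ire1) and 1 fell (hut1), against 25.6% and 27.3%. At 3 h none rose and 2 fell (hut1 and ire1), against 19.7% and 22.2%. These shares are near those of all genes for a set of this size, and nothing about the set as a whole follows from the counts.

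Every one of the 5 changed between 43C and each recovery time. From 43C to 1 h, 2 rose (hut1 and ire1) and 3 fell (bip1, cnx1 and ero11), against 35.1% and 30.3% of all genes. From 43C to 3 h the same 2 rose and the same 3 fell, against 37.2% and 33.9%. Between 1 h and 3 h none rose and 2 fell (bip1 and ire1), against 23.4% and 23.5%. The falls of ero11 from 43C, by -0.48 to 1 h (limma adjusted p = 0.0155) and by -0.50 to 3 h (adjusted p = 0.0112), turned into 0.30 and 0.34 on the deposited scale, and the call of the first was lost in 3 and of the second in 2 of the settings that leave out 1 array.

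**Figure D2:**
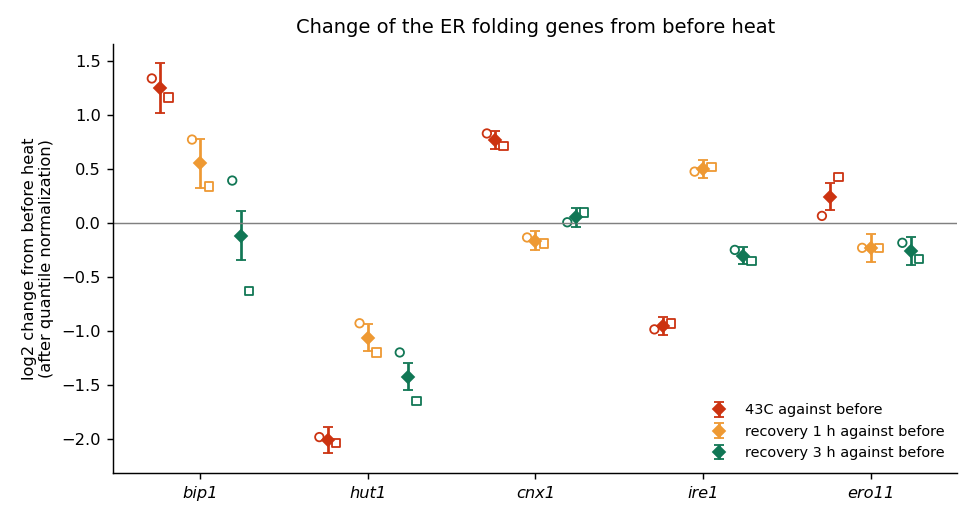
Log2 change of each ER folding gene from before heat, after quantile normalization, in each of the 3 later conditions. Filled diamonds with bars are the limma estimate ± SE (2 arrays per condition), open circles the change in opi10+ and open squares that in opi10-. The strains lie close for cnx1 and ire1 and far apart for bip1 at 3 h (0.39 and -0.63).

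The strains were compared over the 4 conditions together and within each. Over all conditions no member differed between the strains by limma, with opi10- minus opi10+ at -0.24 ± 0.16 for bip1 (adjusted p = 0.606), 0.05 for hut1 (0.871), -0.08 for cnx1 (0.641), -0.13 for ire1 (0.486) and -0.03 for ero11 (0.928). None of the 2892 genes was called in this comparison by limma, with 317 at an unadjusted p below 0.05. The annotation pairs no probe set with opi10, so the gene by which the strains differ does not check the labels.

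Within a condition there is 1 array per strain and no test. The difference in bip1, opi10- minus opi10+, was 0.16 log2 before heat, -0.01 at 43C, -0.27 at 1 h and -0.86 at 3 h, where the opi10- level was 0.552 of the opi10+ level. The deposited values gave -0.80 at 3 h. Only 0.242% of tested genes had a lower difference at 3 h, which makes bip1 the 8th lowest. It was not past 2-fold in any condition, and neither was any other member. Past 2-fold in either direction were 0.657% of genes before heat, 0.38% at 43C, 0.138% at 1 h and 0.553% at 3 h.

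The change of bip1 from before heat to 3 h was lower in opi10- than in opi10+ by -1.02 log2, with 0.104% of genes lower. Counted in either direction, 98.8% of genes had a difference of smaller size. The same quantity was -0.18 at 43C, with 24% of genes lower, and -0.43 at 1 h, with 5.43% lower. In size, 53.5% of genes were smaller at 43C and 88.3% at 1 h. The residual standard deviation of bip1 in the additive model was 0.315, against a median of 0.101 over all genes, and 97% of genes had a smaller one. The steps of bip1 were tested against this spread after limma had moderated it toward that of all genes, with an SE of 0.23.

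The differences of the other 4 genes were smaller in size than that of bip1 at 1 h and 3 h of recovery, and all 4 were larger than it at 43C. For hut1 the differences were 0.24, 0.19, -0.03 and -0.21, for cnx1 -0.06, -0.18, -0.12 and 0.03, for ire1 -0.12, -0.07, -0.08 and -0.23, and for ero11 -0.08, 0.28, -0.08 and -0.23, in the order before, 43C, 1 h and 3 h. All of these lay within the middle 95% of genes in their condition, which ran from -0.58 to 0.39 before heat, -0.50 to 0.43 at 43C, -0.41 to 0.35 at 1 h and -0.48 to 0.43 at 3 h. At 3 h, 4 of the 5 genes were lower in opi10-, against 49.1% of all genes, and cnx1 was at 0.03. With 5 genes on single arrays, nothing about the set follows from this count.

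**Figure D3:**
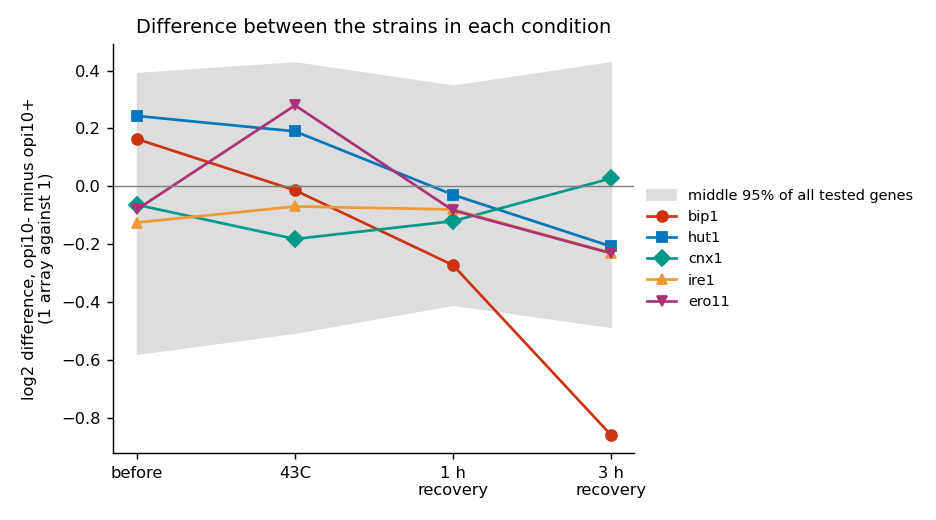
Log2 difference between the strains (opi10- minus opi10+, 1 array against 1) for each ER folding gene in each condition, with the middle 95% of the 2892 tested genes shaded. The 5 genes lie within the shaded range except bip1 at 3 h of recovery, at -0.86.

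BiP is 1 of 6 measured members of the HSP70 family. Of these, 4 rose at 43C and none fell, against 32.8% and 39.8% of all genes, namely ssa1 of the cytosol (5.07 log2), bip1 (1.25), the HSP110 gene pss1 (1.12) and ssc1 of mitochondria (0.34), with ssa2 of the cytosol at 0.23 and ribosome-bound sks2 at -0.19 not called. In the deposited values 3 were called higher and 1 lower, against 11.2% and 73.7% of all genes, with all 6 above the median of all genes. At 1 h 2 of the 6 were higher, against 25.6% of all genes, and at 3 h 1 was, against 19.7%. At 1 h ssa1 (4.14) and pss1 (0.76) were above the level before heat, and at 3 h ssa1 alone was (3.38). From 43C to 3 h the 5 genes other than sks2 fell and none rose, against 33.9% and 37.2% of all genes.

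At 3 h all 6 HSP70 genes were lower in opi10-, against 49.1% of all genes. Their median was -0.28 log2, against a median of 0.002 over all genes. The lowest was bip1 at -0.86, with ssa1 at -0.38 and pss1 at -0.31. At 1 h 5 of the 6 were lower, and at 43C 4 were, where the medians over all genes were 0.01 and 0.02. Before heat 3 were higher and 3 lower. There the signal of ssa1 was 522 in opi10+ and 200 in opi10-, a difference of -1.09, while bip1 was 0.16 higher in opi10-. These are single arrays, with no test.

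The other genes were described by 9 lists, called ER lists here and written with earlier results known, 85 tested genes in all with the 5 included. The list of nucleotide-sugar transport and galactose transfer, with 14 tested genes, includes Golgi genes such as gms1 and vrg4. The pooled shares are therefore not those of ER genes alone. At 43C 16 of the 85 genes rose and 53 fell, that is 18.8% and 62.4%, against 32.8% and 39.8% of all genes. Their median change was -0.48, against -0.07 over all genes. In the deposited values, where the median gene fell by 0.91, only 6 were called higher. At 1 h 9 rose and 42 fell (10.6% and 49.4%, against 25.6% and 27.3% of all genes), at a median of -0.31. At 3 h 10 rose and 34 fell (11.8% and 40%, against 19.7% and 22.2%), at a median of -0.19. The shares of all genes just given are the background for the single lists too, with 32.8% rising and 39.8% falling at 43C. In the deposited values 11.2% of all genes rose and 73.7% fell at 43C.

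Other genes of the chaperone list were mixed. Of 4 measured ER chaperone and J protein genes, bip1 and cnx1 rose, the ER cyclophilin gene cyp4 fell by 0.75 (limma adjusted p = 0.000229), and sec63, the J protein that recruits BiP to the translocon, was at 0.07 (adjusted p = 0.61). Deposited values put sec63 at -0.71, and 2 of the 4 were called lower there, against 73.7% of all genes. Of 3 disulfide genes ero12, the other Ero1 oxidase, fell by 1.40 (adjusted p = 2.79e-05) and pdi3, a protein disulfide isomerase, fell by 0.86 (adjusted p = 0.000373), whereas ero11 was not called. The difference between the 2 oxidase genes was not itself tested.

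Translocation genes fell at 43C. Of 16 measured genes 12 fell and 1 rose on the normalized scale, with a median of -0.53, against 39.8% and 32.8% of all genes. In deposited values 15 fell, with a median of -1.44, where 73.7% of all genes fell. The largest changes were those of 2 small translocon subunits, sss1 at -1.87 (limma adjusted p = 1.22e-05) and sbh1 at -1.66 (adjusted p = 1.46e-05). The pore subunit gene sec61 fell by 0.70 and srp68 of the signal recognition particle fell by 0.91, while spc3 of the signal peptidase rose by 0.57. At 3 h 9 were called below the level before heat, against 22.2% of all genes. Among them were sec66 (-0.86), srp68 (-0.74), sss1 (-0.60) and sec61 (-0.58), while the signal peptidase subunit gene sec11 was above it (0.60).

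Genes of N-glycosylation also fell. Of 26 measured, 21 fell and 1 rose at 43C, against 39.8% and 32.8% of all genes, and the median was -0.66. In deposited values 25 fell, where 73.7% of all genes did. Among them were alg14 (-2.06) and alg1 (-1.40) of early steps in building the lipid-linked sugar, alg8 (-1.28), which adds glucose to it, and ost2 (-1.20) of the oligosaccharyltransferase. The signal of alg14 went from 752 to 68.3 in opi10+ and from 832 to 73.4 in opi10-. The exception was dpm2, a subunit of dolichol phosphate mannose synthase, which rose by 0.89, and its partners dpm1 and dpm3 fell by 0.69 and 0.83. In deposited values dpm2 was at -0.16. At 3 h 10 were called lower, against 22.2% of all genes, and dpm2 was higher by 1.12 (limma adjusted p = 0.00182).

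All 3 protein O-mannosyltransferase genes fell at 43C, against 39.8% of all genes, ogm1 by 1.26, ogm4 by 0.81 and ogm2 by 0.65. At 1 h ogm1 alone was called lower (-0.31, limma adjusted p = 0.036), and at 3 h ogm4 alone (-0.33, adjusted p = 0.0348). Of 10 COPII genes, which carry folded proteins out of the ER, 7 fell, against 39.8% of all genes. They included the cargo receptor gene erv14 (-1.31) and emp24 (-0.89). The coat genes sec31 (0.82) and sec16 (0.35) rose, but on the deposited scale all 10 fell, where 73.7% of all genes did. At 3 h sec231 (-0.76) and sec13 (-0.46) were among 4 called lower, against 22.2% of all genes.

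ER-associated degradation, which takes misfolded proteins out of the ER for proteasomal breakdown, had most of its genes called higher at 43C on the normalized scale. Of 9 measured genes 8 rose and 1 fell, against 32.8% and 39.8% of all genes, although in deposited values 3 were called higher and 5 lower (11.2% and 73.7% of all genes), with 8 of the 9 above the median of all genes there. The ubiquitin-conjugating enzyme gene ubc6 rose by 1.54 (limma adjusted p = 3.11e-05), and its partner in the same pathway ubc7 fell by 1.02 (adjusted p = 0.000442). The extraction complex of the ATPase Cdc48 with Ufd1 and Npl4 rose, with cdc48 at 1.01, ufd1 at 1.27 and npl4 at 0.35, although this complex also works outside the ER. The membrane ubiquitin ligase genes doa10 and hrd1 rose by 0.51 and 0.46. On the deposited scale ubc6, cdc48 and ufd1 were at 0.78, 0.62 and 0.64, whereas npl4, doa10 and hrd1 were at -0.53, -0.11 and -0.37.

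In recovery these genes parted. At 1 h doa10 was up by 0.95 (limma adjusted p = 0.000682), ubc6 was below its level before heat at -0.39 (adjusted p = 0.0159), and cdc48 was at -0.01 (adjusted p = 0.962). At 3 h 6 of the 9 were above the level before heat and none below, against 19.7% and 22.2% of all genes, including npl4 (0.66), ufd1 (0.56) and ubc7 (0.56).

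**Figure D4:**
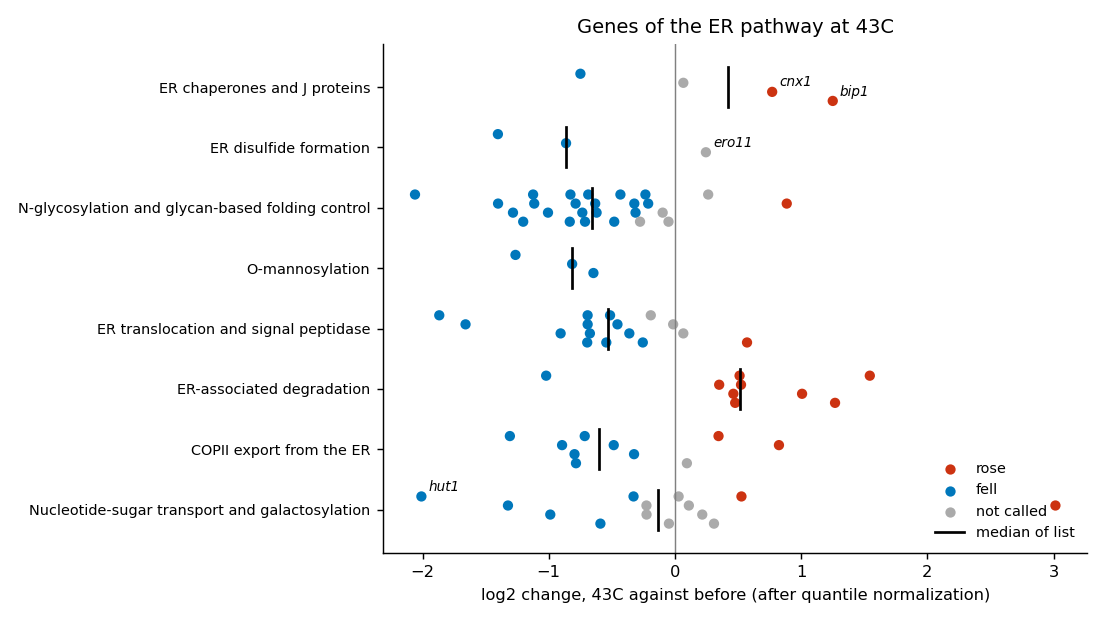
Log2 change at 43C against before, after quantile normalization, of every tested gene in 8 ER lists, coloured by its call, with a black bar for the median of each list. ER-associated degradation lies mostly to the right (median 0.51), and N-glycosylation (median -0.66) and translocation (median -0.53) mostly to the left. The sensor ire1, the 9th list, is not drawn.

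The transporter hut1 was set beside genes for nucleotide sugars and galactose transfer. Of 14 measured, 2 rose and 5 fell at 43C, 14.3% and 35.7%, against 32.8% and 39.8% of all genes, with hut1 lowest. The deposited values called 1 higher and 13 lower, against 11.2% and 73.7% of all genes. Besides hut1, otg2 fell by 1.32 and vrg4, which brings GDP-mannose into the Golgi, fell by 0.99. The Golgi UDP-galactose transporter gene gms1 was at 0.22 (limma adjusted p = 0.151). The gene gal10, which encodes a UDP-glucose epimerase, rose by 3.01 ± 0.33 (adjusted p = 0.00024), and its signal went from 252 to 1165 in opi10+ and from 124 to 799 in opi10-.

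At 1 h of recovery 9 of the 14 were below the level before heat, 64.3% against 27.3% of all genes. They included hut1 (-1.06), gms1 (-0.80), the galactosyltransferase genes gma12 (-0.78) and gmh3 (-0.77), and gmh1 alone rose (0.64, limma adjusted p = 0.0275). At 3 h 7 were below and 2 above, against 22.2% and 19.7% of all genes. The lowest were hut1 (-1.42) and gms1 (-0.66, adjusted p = 0.00783), and those above were gal10 (1.45) and gmh1 (0.90).

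The strains were compared within these lists in the same way. After quantile normalization all 16 translocation genes were higher in opi10- before heat, by a median of 0.12 log2 and at most 0.35, against a median of 0.03 over all genes, but in deposited values 11 were higher and 5 lower, at a median of 0.046. At 43C 14 of the 16 were higher, at 1 h 12 and at 3 h 8 (in deposited values 15, 13 and 5). Their normalized medians were 0.11, 0.05 and -0.03 in turn, against 0.02, 0.01 and 0.002 over all genes. Medians of the strain difference over all genes in deposited values are not given here. No gene of the 85 differed by 2-fold in any condition, and bip1 at 3 h and gal10 at 1 h (-0.81) were the lowest values. Only 0.207% of tested genes lay below gal10 at 1 h. The highest values were gal10 at 3 h (0.66, with 99% of genes below) and gtb1 at 1 h (0.63, with 99.7% below). Each value compares 1 array with 1.

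The genes whose levels ran most like those of a member were found by Pearson correlation over the 8 arrays, as a description. All arrays share their normalization, and pairs share a condition. For bip1 they were imt3 (r = 0.988), a mannosyltransferase of sphingolipid synthesis, isp4 (0.984), an oligopeptide transporter, the ceramide synthase gene lag1 (0.984), the mitochondrial sulfide oxidoreductase gene hmt2 (0.98) and the HSP70 gene ssa2 (0.969). Their changes at 43C ran from 0.23 for ssa2 to 1.25 for imt3, next to 1.25 for bip1. Their strain differences at 3 h were -0.62, -0.44, -0.44, -0.29 and -0.25 in the order named, all smaller in size than the -0.86 of bip1, and the correlation that chose them used these arrays.

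For hut1 the most alike genes were the mannosidase gene mns1 (r = 0.99), the chromatin remodeller subunit gene ssr4 (0.99), usp102 of the U1 small nuclear ribonucleoprotein (0.987), blt1 (0.984) and mcp6 (0.98). Their falls at 43C, from -0.69 to -0.97, were all smaller in size than that of hut1 (-2.01). The genes most like cnx1 were zta1 (0.989), mug33, mug135, and the mitochondrial fission genes dnm1 and fis1 (0.986). Those most like ire1 were cta5 (0.999), gfh1 (0.996), alm1, apm1 and the ammonium transporter gene amt1 (0.985). Those most like ero11 were less close, from wsp1 (0.951) and ptr8 (0.947) to rpt1, hif2 and ppa1 (0.918). Among the 5 genes themselves r ran from -0.91 for cnx1 with ire1 to 0.745 for cnx1 with ero11, with 0.69 for bip1 with cnx1 and -0.567 for bip1 with hut1.

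**Figure D5:**
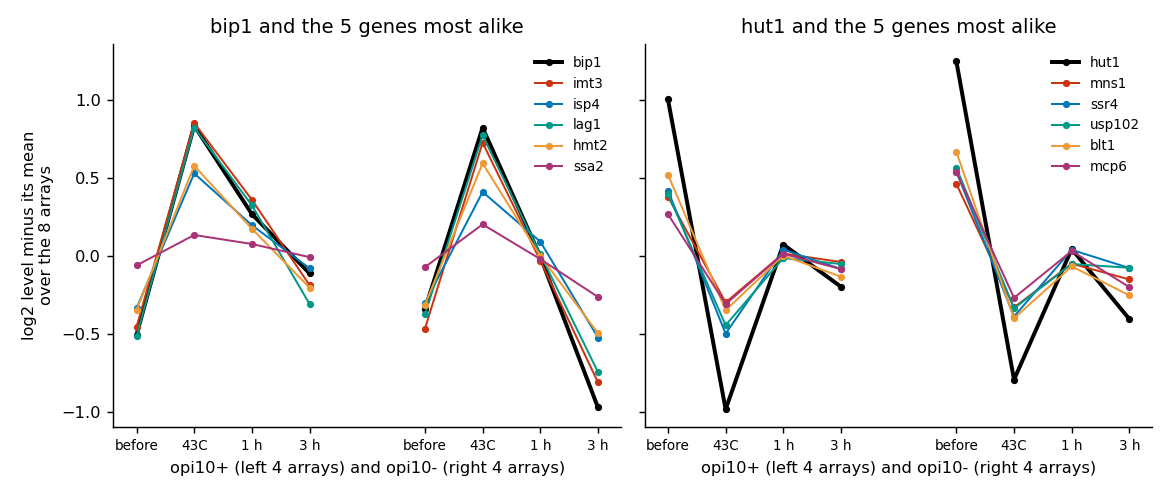
Log2 level (after quantile normalization) minus its mean over the 8 arrays, for bip1 (left) and hut1 (right) in thick black and the 5 genes most correlated with each. The left 4 points of a panel are opi10+ and the right 4 opi10-, each in the order before, 43C, 1 h and 3 h. The 5 genes beside each were chosen by correlation over these same arrays, which matches shape and not size of change. Over the condition means bip1 has a range of 1.37, and its 5 companions run from 0.30 for ssa2 to 1.32 for lag1. The range of hut1 is 2.01, and its 5 companions reach at most 0.97.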

How the data were processed

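RNA was amplified from the 3' end and hybridised to Affymetrix yeast arrays, per the labels' protocols. The authors deposited intensity values on a linear scale for 10928 probe sets. The sources used here do not give how probes were summarised and scaled. Gene names come from the platform annotation, updated to the ASM294v3 gene table. The array files name no build, so no coordinates are given, and sequences were not analysed here.

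Values were transformed as log2(value + 16) and quantile normalized over 2914 S. pombe probe sets. Where a gene had several probe sets, the brightest was used. The filter required a mean above the 75th percentile of S. cerevisiae probe sets (signal 6.04), which left 2892 of 2896 genes, all 5 members included. The number of arrays limits precision. limma 3.58.1 in R 4.3.3 fitted strain and condition additively over 8 arrays (3 residual degrees of freedom), checked on simulated data. The contrast of 3 h with 43C was added after the values were seen. Strain differences within 1 condition have no test, with 2-fold as the size rule.

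The members and lists were chosen with earlier results of these data known. Named genes are the members, the HSP70 family, up to the 4 largest called changes of each list with their complex partners, and the 5 genes most correlated with each member. Others named within lists were chosen after their values were seen. From the lists, 3 entries (pvg4, png1 and mpd2) were dropped because their names could belong to another gene or could not be placed. They were dropped after values had been seen. The alternatives were the deposited scale, centring, pseudocounts of 1 and 64, no filter or the 95th percentile, an intensity trend, no strain term, and leaving out each array.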

Additional observations from a re-analysis of the deposited data

Results flagged for a closer look

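The change of bip1 from before heat to 3 h of recovery had opposite signs in the strains, at 0.39 log2 in opi10+ and -0.63 in opi10-. Each value compares 1 array with 1 array, so the difference between the strains was not tested.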

How the results depend on the processing

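The calls of bip1, hut1, cnx1 and ire1 at 43C, of hut1 at 1 h and 3 h, and of ire1 at 1 h kept their direction and their side of the threshold under all alternatives run. On the deposited scale the changes of ero11 became -0.47 at 43C, 0.30 from 43C to 1 h, 0.34 from 43C to 3 h and 0.047 from 1 h to 3 h, that of cnx1 at 3 h became -0.022, and that of ire1 at 3 h was -0.047 and no longer called. There 323 genes rose and 2132 fell at 43C, 330 fell at 3 h, 2272 rose and 211 fell from 43C to 1 h, and 395 fell from 1 h to 3 h, and of the ER lists 6 rose at 43C and 19 fell at 3 h. The deposited strain differences of ire1 were -0.23 before heat, 0.12 at 43C and -0.021 at 1 h. Centring on a median without ribosomal protein genes gave 0.47 for ero11 at 43C, -0.32 for cnx1 at 1 h and -0.21 for ire1 at 3 h, the first 2 then called and the third not, and -0.19 for cnx1 at 3 h. It gave strain differences of 0.025 before heat and -0.19 at 1 h for cnx1, and of 0.043 at 43C and -0.16 at 3 h for ire1. The fall of bip1 from 1 h to 3 h was not called with a pseudocount of 1 (-0.68), an intensity trend (-0.67) or no strain term (-0.67). The trend called cnx1 between these times (0.21), and the fit without strain called hut1 there (-0.36) and not ire1 at 3 h (-0.30). Apart from the scale of the arrays, the cause of these changes was not tested.

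Leaving out each array in turn, which takes the lone array of a condition to vary like the others, gave, for bip1, 0.29 to 0.84 at 1 h, -0.53 to 0.28 at 3 h, -0.81 to -0.51 from 43C to 1 h and -1.10 to -0.28 from 1 h to 3 h. It gave -0.022 to 0.13 for cnx1 at 3 h, 0.036 to 0.43 for ero11 at 43C, -0.65 to -0.26 for ero11 from 43C to 1 h and -0.16 to 0.11 from 1 h to 3 h, -0.53 to -0.20 for hut1 from 1 h to 3 h, and -0.38 to -0.24 for ire1 at 3 h. The strain term ran from -0.014 to 0.14 for hut1 and from -0.13 to 0.040 for ero11. Over all genes it gave 396 to 730 higher and 449 to 784 lower at 1 h, 280 to 570 and 289 to 619 at 3 h, and 295 to 740 and 307 to 706 from 1 h to 3 h. In the ER lists 3 to 10 rose and 25 to 42 fell at 1 h, and 4 to 12 rose and 14 to 33 fell at 3 h. Between the strains it called 0 or 1 gene, the latter without either array before heat.

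Of 1504 counts for single lists under alternatives, 1304 lay within 1.5 times the main count. The strain term of the main fit compares conditions within a strain, and the arrays carry no replicate numbers to block on beyond it.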
